A study of Mus musculus with 6 samples.

Results

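Solute carriers are membrane proteins that move sugars, amino acids, metals, vitamins, ions and metabolites across the plasma membrane and the membranes of organelles, and each carries a limited set of substrates. Erythroblasts, the precursors of red cells, import glucose for energy and iron and glycine for heme, while macrophages of the same tissues take up and degrade cell remnants. The genes described here were chosen by symbol: every gene on the larger of the imaging panels whose symbol begins with Slc and a digit, other than Slc4a1, Slc40a1, Slc25a37, Slc14a1, Slc22a8 and Slc27a2. The panel held 84 such genes, of which 4 of the 6 named exceptions were left out, so that 80 remained beside 4970 other genes. Slc9a3r1 is among the 80 by its symbol, although its product is a scaffold protein and not a carrier.

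The measurements came from in situ imaging of single RNA molecules with gene-specific probes (Xenium) in 2 sections of 5 µm from wild-type C57BL/6 mice, with no treatment, transgene or deletion. One was the liver of an embryo at embryonic day 13.5 (E13.5), when the liver is the main site of red cell production, and the other was femoral marrow of mice aged 89 weeks, which was freed from bone on thick cryosections before it was embedded in paraffin. The liver was fixed in formalin and the marrow in paraformaldehyde, each for 3 days. Both were imaged in one run and segmented with the same software. Sections of E14.5 fetal liver, postnatal day 8 (P8) marrow, untreated adult spleen and spleen after phenylhydrazine were used only for genes shared with a smaller panel. All but the last were labeled wild type, and the paper describes the last as from a wild-type mouse. With 1 section per condition there was no replicate, no comparison could be tested, and age and tissue cannot be told apart. The deposited counts held 5285 cells with 1384795 gene counts in the fetal liver and 143810 cells with 13053261 in the marrow, and no cell name was shared by both. Cells with at least 5 detected genes numbered 5254 and 140707, with a median of 191 and 62 counts per cell. Levels are given as counts of a gene per 1000000 counts of all genes in a group of cells (CPM), and ratios carry exact 95% intervals that cover counting error only.

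Cells with 3 or more counts of Slc4a1 and Klf1 together are called erythroid-gated, those with 3 or more counts of C1qa, C1qb and C1qc together C1q-gated, and those with neither ungated. The erythroid-gated cells numbered 2606 in the fetal liver and 17926 in the marrow, the C1q-gated cells 301 and 4077, and 168 and 774 cells met both gates and counted in both. Gated cells held more counts. The fetal medians per cell were 214 in erythroid-gated, 252 in C1q-gated and 159 in ungated cells. Those of the marrow were 128, 134 and 53. All 8 further erythroid markers on the panel, among them Alas2, Epb42 and Tfrc, were at least 2-fold higher in erythroid-gated than in ungated cells of both sections. Likewise all 11 further macrophage markers were at least 2-fold higher in C1q-gated cells of both. The gated sets were not pure. In the fetal liver the 8 hepatocyte markers on the panel summed to 26997 CPM in erythroid-gated, 13717 CPM in C1q-gated and 40588 CPM in ungated cells, and none was at 0 in the first of these. In the marrow their sum was between 29.2 and 39.3 CPM in the same sets, but other markers were high. There the 11 neutrophil markers summed to 16189 CPM in erythroid-gated, 32738 CPM in C1q-gated and 61169 CPM in ungated cells. The 9 B cell markers summed to 6505, 11422 and 22573 CPM. The 3 C1q genes themselves summed to 28911 CPM in the C1q-gated marrow cells.

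Most of the 80 genes were sparsely detected. In the fetal liver their counts ran from 0 to 2012 with a median of 15, and in the marrow from 4 to 10577 with a median of 73. The panel carries 21 genomic control probes, which bind genomic DNA and so show the level of signal that does not come from RNA. The highest of these gave 5 counts in the fetal liver and 90 in the marrow. The planned yardstick was the highest negative control probe, with 1 and 18 counts, which 65 and 71 of the 80 genes exceeded. Above the stricter genomic control level were 46 genes in the fetal liver and 38 in the marrow, 37 of them in both, while 33 were above it in neither section. Those 33 include Slc16a8, Slc17a6, Slc18a3, Slc5a2, Slc6a5 and Slc9a3, which had 0 counts in the fetal liver, where 3 counts is the upper limit that a count of 0 allows, and between 10 and 44 in the marrow. A gene entered a comparison where the mean of its 2 CPM values gave at least 20 expected counts in the smaller group, and it is called apart where the ratio was at least 2 in either direction.

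Between the whole sections, the fetal liver held more of the RNA for glucose, zinc, manganese, thiamine and folate carriers, and the marrow more of that for the serotonin carrier, the glutamate carrier Slc1a3 and the glucose carrier Slc2a3. Of the 80 genes, 39 entered and 16 were apart. Of these, 11 were at least 2-fold higher in the fetal liver, against 20.5% of the 3328 genes of the whole panel that entered, and 5 were at least 2-fold lower, against 20.6%. The median ratio of fetal liver to marrow was 1.30 over the 39 genes and 1.08 over all genes. ABC transporters, another family of membrane transporters, had 16 of 20 members entered, 5 of them higher and 5 lower in the fetal liver. In a sum over a section, fewer cells of a type and less RNA per cell cannot be told apart.

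Sugar carriers spanned the range. Slc2a1, which encodes the basal glucose transporter of many cells, gave 2012 counts in the fetal liver (1453 CPM) and 555 in the marrow (42.5 CPM), a ratio of 34.1 (31.1 to 37.6). Slc2a2, the low-affinity glucose carrier of hepatocytes, gave 246 counts (178 CPM) in the fetal liver and 14 (1.07 CPM) in the marrow. Its ratio was 166 (96.8 to 307), but the marrow count was below that of the highest genomic control probe (90), so the ratio is one against background. Slc2a3, a high-affinity glucose carrier, lay the other way with 268 counts (194 CPM) in the fetal liver and 8720 (668 CPM) in the marrow, a ratio of 0.290 (0.255 to 0.327). Slc2a4, the insulin-responsive glucose carrier, was not apart, with 65 counts (46.9 CPM) and 656 counts (50.3 CPM). Thus of the 4 sugar carriers that entered, 2 were higher and 1 was lower in the fetal liver, against 20.5% and 20.6% of all genes entered.

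Of the 6 metal carriers that entered, 4 were higher in the fetal liver, against 20.5% of all genes entered, and none was lower, against 20.6%. Slc39a5, a zinc importer, gave 139 counts (100.4 CPM) in the fetal liver and 30 (2.30 CPM) in the marrow, the latter again below the highest genomic control probe. Slc39a8, which imports zinc, manganese and iron, gave 392 counts (283 CPM) and 437 (33.5 CPM), a ratio of 8.45 (7.35 to 9.71). Slc30a10, a manganese exporter, was close to it in ratio, at 7.26 (6.35 to 8.31), with 391 counts (282 CPM) and 507 (38.9 CPM). The copper importer Slc31a1 had a ratio of 2.99 (2.37 to 3.75). The iron importers differed less: Slc11a2, which carries iron out of endosomes into the cytosol, had a ratio of 1.53 (1.31 to 1.77), and Slc11a1, which carries divalent metals out of phagosomes, one of 0.866 (0.729 to 1.02).

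Among vitamin carriers, the thiamine carrier Slc19a2 gave 345 counts (249 CPM) in the fetal liver and 373 (28.6 CPM) in the marrow, a ratio of 8.71 (7.50 to 10.1). The folate carrier Slc19a1 was also higher, at 2.49 (2.14 to 2.90). Other genes higher in the fetal liver were Slc47a1, an exporter of organic cations (10, 6.64 to 15.1), and the phosphate carrier Slc20a2 (2.02, 1.71 to 2.37). The marrow count of Slc47a1, 49, was also below the highest genomic control probe.

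Lowest against the marrow was Slc6a4, which encodes the serotonin transporter that platelets use to take up serotonin. It gave 12 counts (8.67 CPM) in the fetal liver and 1432 (109.8 CPM) in the marrow, a ratio of 0.0789 (0.0407 to 0.138). Slc1a3, a glutamate carrier, had 34 and 1199 counts (0.267, 0.184 to 0.375). Slc8b1, the sodium and calcium exchanger of the inner mitochondrial membrane, had 81 and 2745 (0.278, 0.220 to 0.347), and Slc9a9, a sodium and proton exchanger of endosomes, 96 and 2864 (0.316, 0.255 to 0.387). None of the 4 amino acid carrier family members that entered was higher in the fetal liver, against 20.5% of all genes entered. Of these 4, 2 were lower, Slc1a3 and Slc6a4, against 20.6%. Family numbers set this group, so it includes the serotonin carrier Slc6a4 and the creatine carrier Slc6a8. None of the 5 mitochondrial carriers was apart, beside the same shares of all genes. Slc16a1, the main lactate carrier, was not apart either, with 1042 counts (752 CPM) and 10577 (811 CPM).

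**Figure D1:**
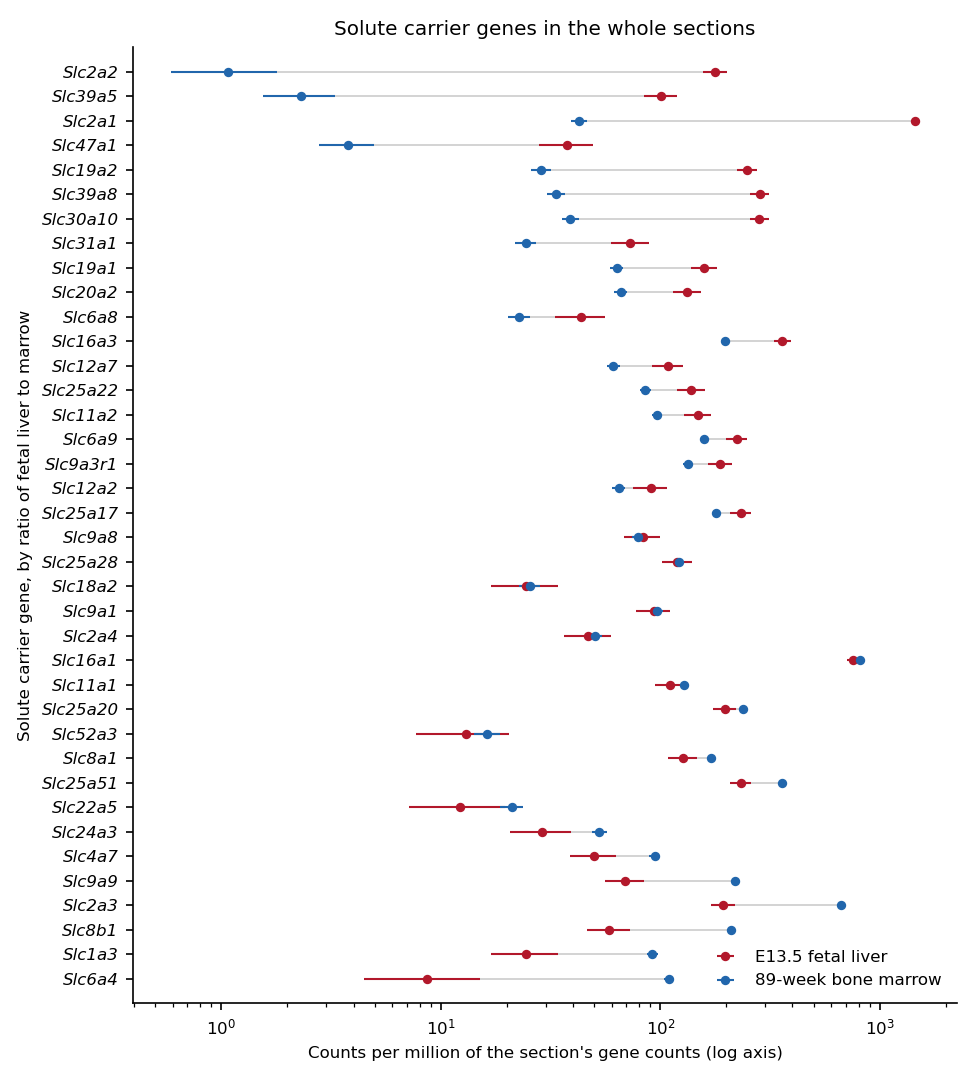
Counts per 1000000 counts of all genes (CPM) of 38 of the 39 solute carrier genes that entered the comparison of the whole sections (log axis), ordered by the ratio of E13.5 fetal liver (red) to 89-week bone marrow (blue). Points are section values, bars are exact Poisson intervals at 95%, and grey lines join both values of a gene; Slc2a2, Slc39a5 and Slc2a1 are the farthest to the fetal side, the first and the second of them with marrow counts below the highest genomic control probe, and Slc6a4 to the marrow side.

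To show how far a level varied within a section, each section was divided into quadrants at the median position of its cells. For all 16 genes that were apart, the ranges over the 4 quadrants did not overlap between sections. These genes were picked by the ratio of the same sums, which favors separate ranges. The share over all genes was not computed, so the count says nothing particular about them. Slc2a1 ran from 1210 to 1882 CPM over the fetal quadrants and from 38 to 46.1 CPM over those of the marrow. The quadrants share a section and are not replicates. As counts per cell in place of CPM, 30 of the 39 genes were at least 2-fold higher in the fetal liver and 1, Slc6a4, was lower, since the fetal cells held more counts of all genes, and 69.8% of all genes were then higher. With each section scaled by the median ratio over all genes (a shift of 0.106 on the log2 scale), 10 genes were higher and 6 lower, beside 18.6% and 22.1% of all genes.

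The gates were used to compare levels between sets of cells within each section, which does not divide up the differences between the sections. In erythroid-gated cells of both sections, RNA for the glycine carrier Slc6a9 and the manganese exporter Slc30a10 was higher than in ungated cells. In the marrow these were joined by carriers of lactate, glucose, iron, mitochondrial NAD+ and zinc. Slc2a1 was higher in erythroid-gated cells of the fetal liver and lower in those of the marrow.

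In the marrow, 38 genes entered, of which 7 were at least 2-fold higher in erythroid-gated cells, against 7.66% of all genes entered, and 18 were at least 2-fold lower, against 43%. The median ratio was 0.520 over the 38 and 0.584 over all genes. Slc6a9, which imports glycine, a building block of heme, gave 1600 counts in erythroid-gated cells (550 CPM) and 449 in ungated cells (46.7 CPM), a ratio of 11.8 (10.6 to 13.1). Erythroid-gated cells held 77.3% of all its marrow counts and 22.3% of the counts of all genes. Slc2a4 gave 470 counts (161 CPM) and 179 (18.6 CPM), a ratio of 8.68 (7.29 to 10.4). Slc30a10 gave 355 (122 CPM) and 148 (15.4 CPM), a ratio of 7.93 (6.53 to 9.67). All 3 were higher in erythroid-gated cells of each quadrant, Slc6a9 by between 9.49 and 14.6 times.

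Slc16a1, which carries lactate and pyruvate with protons, had 6288 of its 10577 marrow counts in erythroid-gated cells (2160 CPM, against 430 CPM in ungated cells), a ratio of 5.02 (4.83 to 5.23). Slc11a2, the iron importer of the transferrin cycle, had a ratio of 3.96 (3.53 to 4.43), with 669 and 559 counts. Slc25a51, the importer of NAD+ into mitochondria, had 3.74 (3.53 to 3.96), with 2439 and 2157 counts. Slc39a8 was the last of the 7, at 2.64 (2.17 to 3.21), but in cells thinned to 50 counts its ratio was 1.33 (0.685 to 2.39), from 13 and 98 counts. Over quadrants the ratio of Slc25a51 ran from 3.58 to 3.87 and that of Slc16a1 from 4.68 to 5.72.

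Fetal liver cells had 33 genes entered, of which 4 were at least 2-fold higher in erythroid-gated cells, against 3.32% of all genes entered, and 3 were at least 2-fold lower, against 15.8%. Slc6a9 again led, with 250 counts in erythroid-gated cells (336 CPM) and 54 in ungated cells (90.9 CPM), a ratio of 3.69 (2.74 to 5.05). Slc30a10 gave 301 (404 CPM) and 87 (147 CPM), a ratio of 2.76 (2.17 to 3.54), and Slc2a1 gave 1507 (2024 CPM) and 474 (798 CPM), a ratio of 2.54 (2.29 to 2.82). Slc11a1 was the fourth, at 2.24 (1.41 to 3.65), but without the cells that met both gates its ratio was 1.07. The 3 C1q genes summed to 1811 CPM in erythroid-gated and 386 CPM in ungated fetal cells. That difference is built into the gates, since ungated cells hold fewer than 3 such counts by definition. Slc2a4, Slc39a8, Slc16a1, Slc25a51 and Slc11a2, which were apart in the marrow, had fetal ratios between 1.38 and 1.93. Among those lower in erythroid-gated cells were the creatine carrier Slc6a8, with 10 counts (13.4 CPM) and 48 (80.8 CPM), and Slc47a1, with 18 and 33 counts. In the 739 fetal erythroid-gated cells without a count of any hepatocyte, neutrophil, B cell or megakaryocyte marker, the ratio to ungated cells was 6.41 (4.48 to 9.22) for Slc6a9 and 4.33 (3.81 to 4.93) for Slc2a1. The ratio of Slc2a4 rose to 3.87 in the same cells, so it was not particular to the marrow there. Those of Slc39a8, Slc16a1 and Slc11a2 were between 1.32 and 1.85. The 739 cells held 1 count of Slc2a2, against 103 over all erythroid-gated cells. The ungated cells they were compared with were not filtered by those markers.

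**Figure D2:**
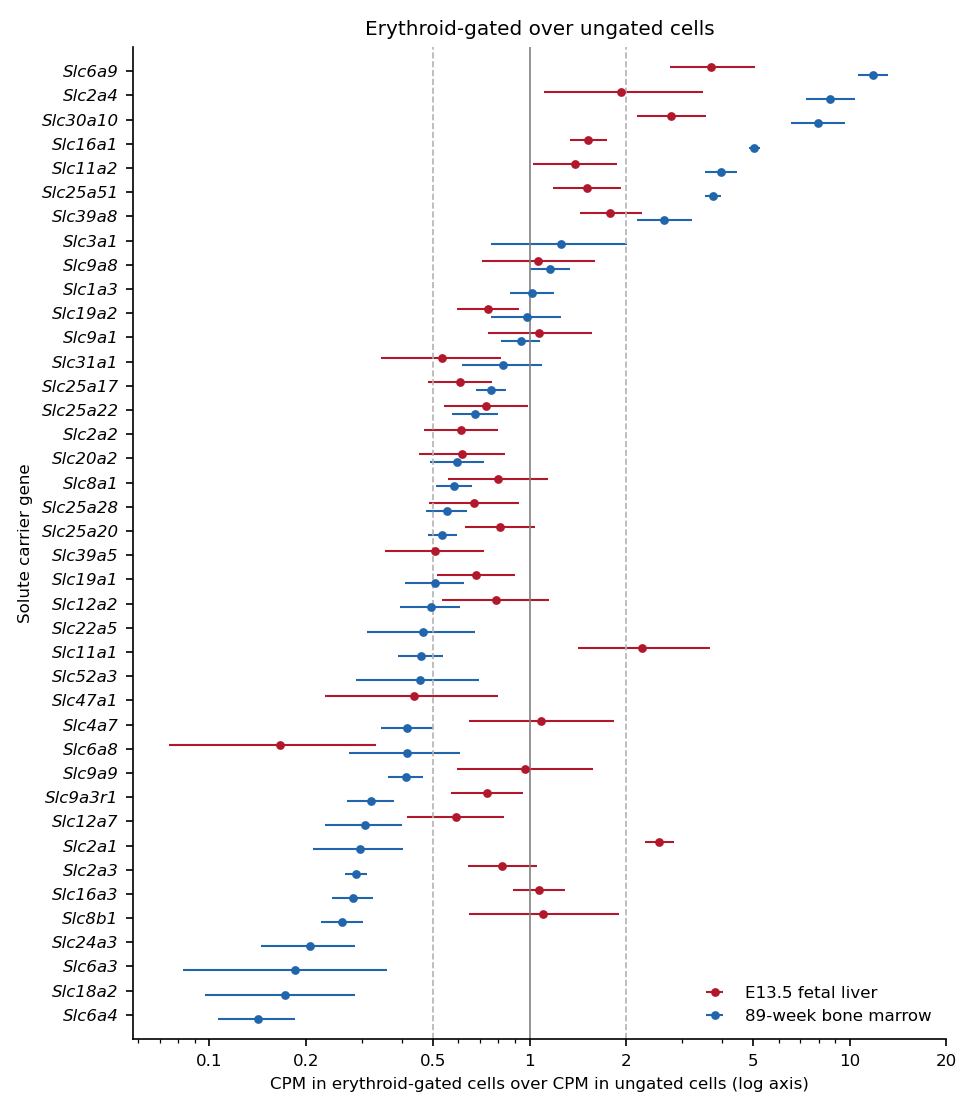
Ratio of CPM in erythroid-gated cells to CPM in ungated cells (log axis) for the solute carrier genes that entered in E13.5 fetal liver (red) or 89-week bone marrow (blue), all but 1, with exact 95% counting intervals; the solid line marks a ratio of 1 and the dashed lines ratios of 0.5 and 2. Slc6a9 and Slc30a10 lie above 2 in both sections, while Slc2a1 and Slc11a1 lie above 2 in the fetal liver and below 0.5 in the marrow.

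Across both sections 30 genes entered the erythroid comparison. Slc6a9 and Slc30a10 were higher in both, 2 genes, among them Slc6a8, were lower in both, and 5 were higher in the marrow and not apart in the fetal liver. Slc2a1 and Slc11a1 were higher in the fetal liver and lower in the marrow. These overlaps were not counted over all genes, so they say nothing particular about solute carriers. In the marrow Slc2a1 gave 43 counts in erythroid-gated cells (14.8 CPM) and 482 in ungated cells (50.1 CPM), a ratio of 0.295 (0.211 to 0.403), and only 7.75% of its counts lay in erythroid-gated cells, against 74.9% in the fetal liver. The other genes lowest in erythroid-gated cells of the marrow were Slc6a4 (0.142), Slc18a2, the vesicular monoamine carrier (0.172), Slc6a3, the dopamine carrier (0.185), Slc24a3, a sodium and calcium exchanger (0.206), Slc8b1 (0.260) and Slc16a3, a lactate exporter (0.281). The erythroid-gated counts of Slc6a3 and Slc18a2 in the marrow were at or below the highest genomic control probe, 19 counts.

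The split depended on scaling in the marrow. With the median ratio over all genes as the scale, a shift of -0.78 on the log2 scale, 8 of the 38 genes were higher and 7 lower, beside 17.9% and 14.4% of all genes, the ratio of Slc2a1 was 0.505 and that of Slc11a1 was 0.784, so that neither was then apart. The same scale gave 6 higher and 1 lower of the 33 in the fetal liver, beside 5.6% and 9.45% of all genes.

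Of a list of 18 carriers known from erythroid cells, 6 were on the panel (Slc2a1, Slc11a2, Slc39a8, Slc16a1, Slc6a9 and Slc19a1) and all 6 entered. In erythroid-gated cells of the fetal liver, 2 were at least 2-fold higher, against 3.32% of all genes entered, and none was lower, against 15.8%. In those of the marrow 4 were higher, against 7.66%, and 1, Slc2a1, was lower, against 43%. The list was chosen with earlier results of these data known and is not independent of them. The folate carrier Slc19a1 had ratios of 0.681 (0.515 to 0.898) and 0.506 (0.409 to 0.622).

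Promoter sequences are shown for Slc30a10 and Slc16a1, which were among the genes higher in erythroid-gated cells, and for Slc2a1, whose direction differed between the sections. RefSeq promoters (build GRCm38.p6) matched 61 of the 80 genes, and 5 of the 8 made up of Slc2a1 and the 7 higher in erythroid-gated marrow cells. The windows are the 250 bases before the start at chr1:185454598-185454847, chr3:104638414-104638663 and chr4:119108495-119108744, all on the plus strand. Capitals mark matches on either strand to AGATAA or TGATAA, letters bound by GATA factors such as the erythroid factor GATA1, or to CCNCNCCC, letters bound by factors of the KLF family such as KLF1.
Slc30a10: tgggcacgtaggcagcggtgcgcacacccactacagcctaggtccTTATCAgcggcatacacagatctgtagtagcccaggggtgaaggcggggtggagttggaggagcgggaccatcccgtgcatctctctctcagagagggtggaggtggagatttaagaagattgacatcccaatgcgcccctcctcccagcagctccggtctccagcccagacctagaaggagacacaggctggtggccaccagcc
Slc16a1: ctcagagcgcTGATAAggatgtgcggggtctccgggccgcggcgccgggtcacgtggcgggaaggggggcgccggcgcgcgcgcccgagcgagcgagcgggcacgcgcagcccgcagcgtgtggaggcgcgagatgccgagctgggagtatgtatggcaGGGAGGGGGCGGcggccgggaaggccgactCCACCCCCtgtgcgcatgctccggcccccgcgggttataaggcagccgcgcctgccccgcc
Slc2a1: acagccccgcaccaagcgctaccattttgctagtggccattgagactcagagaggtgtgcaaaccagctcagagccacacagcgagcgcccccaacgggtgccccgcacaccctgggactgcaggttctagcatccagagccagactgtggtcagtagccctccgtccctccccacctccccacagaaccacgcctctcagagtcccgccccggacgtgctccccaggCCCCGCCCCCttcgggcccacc
Slc30a10 held 1 TGATAA, on the minus strand. Slc16a1 held 1 TGATAA and 3 matches to CCNCNCCC, and Slc2a1 held 2 overlapping matches to CCNCNCCC and none to the others. The other matched genes are not shown. Slc6a9, which led in both sections, had 3 windows with neither AGATAA nor TGATAA and with 4, 3 and 1 matches to CCNCNCCC. Slc39a8 had a window with no match and another with 1 AGATAA and 1 CCNCNCCC. Over 32851 promoter windows of the same length, 9.99% held AGATAA, 7.94% TGATAA and 45.9% CCNCNCCC. A match describes the letters and not a bound site.

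Compared directly, the erythroid-gated cells of the fetal liver held more Slc2a1 and less Slc2a4 than those of the marrow. The Slc2a4 ratio was no longer apart, at 0.742, in erythroid-gated cells without hepatocyte, neutrophil, B cell or megakaryocyte markers. Slc2a1 stood at 2024 CPM in the fetal and 14.8 CPM in the marrow set, from 1507 and 43 counts, a ratio of 137 (101 to 190). Slc2a4 stood at 61.8 and 161 CPM, from 46 and 470 counts, a ratio of 0.383 (0.276 to 0.519). Of 31 genes that entered, 13 were at least 2-fold higher in the fetal cells, against 25.4% of all genes entered, and 4 were at least 2-fold lower, against 12.7%. The median ratio was 1.32 over the 31 and 1.21 over all genes. With median-ratio scaling, 10 were higher and 5 lower, beside 19.3% and 16.8% of all genes.

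Higher in the fetal erythroid-gated cells were also Slc19a2 (7.54, 5.76 to 9.93), Slc39a8 (5.52, 4.57 to 6.69), Slc16a3 (5.41, 4.48 to 6.53), Slc19a1 (3.65, 2.75 to 4.85) and Slc30a10 (3.31, 2.83 to 3.88). Lower were Slc16a1, at 900 and 2160 CPM (0.417, 0.384 to 0.451), Slc25a51, at 267 and 838 CPM (0.319, 0.275 to 0.369), Slc2a4, and Slc1a3 with 11 and 205 counts (0.210, 0.103 to 0.383). Slc6a9 and Slc11a2 were not apart, at 0.611 (0.533 to 0.698) and 0.731 (0.599 to 0.885). The hepatocyte gene Slc2a2 had 103 counts in the fetal and 3 in the marrow set (134, 44.7 to 662), and Slc39a5 had 54 and 10. Both marrow counts were below that of the highest genomic control probe, 19, so these genes had no marrow level above background. When only erythroid-gated cells without those other markers were used (739 fetal and 6829 marrow cells), Slc2a2 had 1 count in each set and Slc39a5 had 0 and 2, too few for a ratio. In those cells the ratio was 209 (125 to 376) for Slc2a1, 0.742 (0.421 to 1.23) for Slc2a4, 4.15 (2.12 to 7.90) for Slc19a2 and 9.33 (6.15 to 14.3) for Slc16a3.

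C1q-gated cells of both sections held more Slc11a1, Slc8a1 and Slc9a9 than ungated cells, and those of the marrow also held more Slc1a3. In the fetal liver 13 genes entered, 3 were at least 2-fold higher in C1q-gated than in ungated cells, against 9.71% of all genes entered, and none was at least 2-fold lower, against 6.88%. In the marrow 28 entered, 7 were higher, against 5.69%, and none was lower, against 2.55%. That none was lower depended on the cells used, as given below for Slc2a3 and Slc16a3. The 3 genes higher in the fetal liver, Slc11a1, Slc8a1 and Slc9a9, were among the 7 higher in the marrow. This overlap was not counted over all genes either. Median ratios were 1.21 and 1.11 over the genes entered, and 0.941 and 0.902 over all genes. With median-ratio scaling the marrow count stayed at 7 and 0, beside 6.93% and 1.24% of all genes.

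Slc11a1, known from the resistance of macrophages to intracellular microbes, gave 96 counts in the 301 fetal C1q-gated cells (895 CPM) and 26 in ungated cells (43.8 CPM), a ratio of 20.4 (13.1 to 32.9). In the marrow it gave 312 (462 CPM) and 1235 (128 CPM), a ratio of 3.60 (3.17 to 4.08). Slc8a1, the sodium and calcium exchanger of the plasma membrane, gave 69 (643 CPM) and 66 (111 CPM) in the fetal liver, a ratio of 5.79 (4.07 to 8.24). In the marrow its ratio was 3.40 (3.03 to 3.80), from 383 and 1605 counts. Slc9a9 had ratios of 6.71 (4.13 to 11) and 2.56 (2.29 to 2.85). In every quadrant of both sections Slc11a1 and Slc8a1 were higher in C1q-gated cells, by at least 10.7 times for Slc11a1 in the fetal liver. The fetal ratio of Slc9a9 ran from 1.71 to 26.4 over quadrants, with as few as 2 counts in C1q-gated cells of a quadrant.

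Slc1a3, which takes up glutamate and aspartate with sodium, had the highest ratio in the marrow, 8.29 (7.29 to 9.41), with 386 counts in C1q-gated cells (572 CPM) and 664 in ungated cells (69.0 CPM). In fetal C1q-gated cells it gave 3 counts (28 CPM), and the ratio of the fetal to the marrow set was 0.0489 (0.0100 to 0.144). The potassium and chloride carrier Slc12a7 (2.53, 2.05 to 3.09), Slc2a4 (2.31, 1.5 to 3.43) and Slc6a9 (2.76, 2.17 to 3.48) were also higher in C1q-gated marrow cells. Without the cells that met both gates, the ratio of Slc6a9 there was 0.922 (0.572 to 1.41). In that setting 5 genes were apart, Slc11a1, Slc8a1, Slc9a9, Slc1a3 and Slc12a7, and Slc2a4 was not among them. Erythroid-gated cells held 71.6% of all marrow counts of Slc2a4. Slc2a3 and Slc16a3 had ratios of 0.504 (0.446 to 0.569) and 0.519 (0.412 to 0.645). In C1q-gated marrow cells without hepatocyte, neutrophil, B cell or megakaryocyte markers, these were 0.190 and 0.214. Slc11a1, Slc8a1, Slc9a9 and Slc1a3 stayed higher there, at 3.57 to 9.28. The ungated cells were not filtered by those markers.

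**Figure D3:**
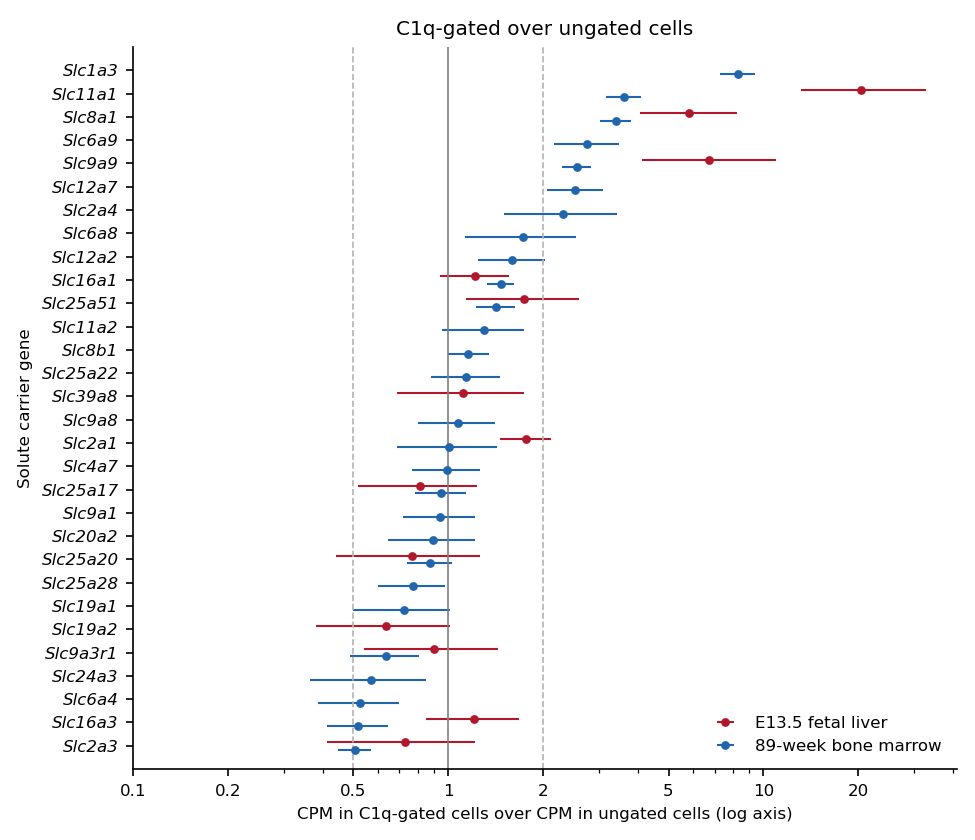
Ratio of CPM in C1q-gated cells to CPM in ungated cells (log axis) for each solute carrier gene that entered in E13.5 fetal liver (red) or 89-week bone marrow (blue), with exact 95% counting intervals; the solid line marks a ratio of 1 and the dashed lines ratios of 0.5 and 2. Slc11a1, Slc8a1 and Slc9a9 lie above 2 in both sections and no gene lies below 0.5.

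Between C1q-gated cells of the sections, 12 genes entered, 2 were at least 2-fold higher in the fetal liver, against 15.1% of all genes entered, and 2 were at least 2-fold lower, against 12.2%. Slc2a1 stood at 1408 and 50.4 CPM, from 151 and 34 counts, a ratio of 28 (19.2 to 41.8), which was 11.3 without the cells that met both gates. Slc16a3 stood at 410 and 124 CPM (3.30, 2.24 to 4.80). Slc1a3 and Slc2a3 were lower. The ratio of Slc11a1 was 1.94 (1.52 to 2.44) and that of Slc8a1 1.13 (0.865 to 1.47). The median-ratio scale left 2 higher and 2 lower, beside 10.6% and 14.5% of all genes. Without other markers, in 123 fetal and 950 marrow cells, Slc2a3 had 6 and 18 counts, a ratio of 1.43 (0.464 to 3.76), which leaves its direction unsettled at this depth. There the ratio of Slc2a1 was 48 (19.4 to 154) and that of Slc16a3 8.57 (2.98 to 27.8). This filter covered hepatocyte, neutrophil, B cell and megakaryocyte markers only. Cells that also met the erythroid gate were kept, so these are not ratios of macrophages alone.

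Of 13 carriers known from macrophages, 5 were on the panel (Slc11a1, Slc9a9, Slc16a3, Slc8a1 and Slc1a3). In C1q-gated cells 3 of the 4 that entered were higher in the fetal liver, against 9.71% of all genes entered, and 4 of 5 in the marrow, against 5.69%. None was lower in either, against 6.88% and 2.55%. This list was chosen with earlier results of these data known and is not independent of them. In C1q-gated cells the 2 erythroid gate genes summed to 14248 CPM in the fetal liver and 10107 CPM in the marrow. Ungated cells had 3210 and 2579 CPM, but each holds fewer than 3 of these counts by definition. That difference is therefore built into the gates and shows nothing further. The part of neighboring erythroid cells in the C1q-gated values was not tested beyond leaving out the cells that met both gates.

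To see which cells held the counts, cells were also sorted by marker lists, with at least 3 counts of a list's genes, and only cells that met exactly 1 of 11 lists were used. Those of the fetal liver were 983 cells with hepatocyte markers, 892 erythroid-gated, 207 stromal, 89 endothelial, 64 C1q-gated, 29 megakaryocyte and 24 neutrophil marker cells, while 2236 cells met more than 1 list. In the marrow they were 34713 cells with neutrophil markers, 10931 erythroid-gated, 10264 B cell, 3319 megakaryocyte, 3139 stromal, 1370 C1q-gated and 1253 monocyte marker cells, and fewer of others. A marker list shows which RNA a segmented outline contained, and the level of a gene is compared only with its own level in other cells.

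Among these the fetal erythroid cells stood out for Slc2a1, at 3014 CPM (2749 to 3297), against 731 CPM (616 to 860) in hepatocyte marker cells and 542 CPM (383 to 744) in stromal marker cells. The 24 neutrophil marker cells gave 6 counts (1284 CPM, 471 to 2794), whose interval overlaps that of the erythroid cells. The marrow erythroid cells had 12 CPM (7.09 to 18.9), below the 34.4 CPM (27.7 to 42.3) of neutrophil marker cells. Slc30a10, listed among hepatocyte carriers, was at 622 CPM (505 to 758) in fetal erythroid and 183 CPM (128 to 253) in hepatocyte marker cells, and at 143 CPM (124 to 163) in marrow erythroid cells. Slc39a8 showed the same order in the fetal liver, at 501 CPM (397 to 625) and 264 CPM (197 to 346).

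Slc2a2 and Slc39a5 lay with the hepatocyte markers. Slc2a2 was at 335 CPM (259 to 426) in hepatocyte marker cells and 12.7 CPM (1.54 to 45.8) in erythroid cells of the fetal liver, from 66 and 2 counts. Slc39a5 was at 233 CPM (171 to 311) and 12.7 CPM, from 46 and 2 counts. Slc19a2 was at 416 CPM (331 to 516) and 114 CPM (67.7 to 180). Of 15 carriers known from hepatocytes 3 were on the panel. In the whole sections both that entered, Slc2a2 and Slc30a10, were higher in the fetal liver, as were 20.5% of all genes entered. Slc30a10, as given above, was higher in fetal erythroid than in hepatocyte marker cells, despite its list.

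In the marrow, cells with megakaryocyte markers had the highest levels of carriers of amines (Slc6a4, Slc6a3, Slc18a2), of glucose (Slc2a3) and of calcium (Slc24a3). Slc6a4 was at 1327 CPM (1233 to 1425) there, from 751 counts, and at most 51.1 CPM in every other class. Slc2a3 was at 3869 CPM (3708 to 4034), from 2190 counts, against 728 CPM (695 to 761) in neutrophil marker cells. Slc24a3 was at 435 CPM (382 to 492), Slc6a3 at 203 CPM (168 to 244) and the vesicular monoamine carrier Slc18a2 at 175 CPM (142 to 213). In the 29 fetal cells with megakaryocyte markers Slc2a3 gave 17 counts (2143 CPM, 1249 to 3432) and Slc6a4 gave 1 count (126 CPM, 3.19 to 703), so that its level there was hardly bounded at this depth. Of 11 carriers listed for granulocytes and lymphocytes, 3 were on the panel (Slc2a3, Slc18a2 and Slc24a3). All 3 were at least 2-fold lower in erythroid-gated cells of the marrow, as were 43% of all genes entered. Their highest levels were in megakaryocyte marker cells, which the name of the list does not cover. For Slc2a3 the level in neutrophil marker cells, 728 CPM, was also above the 668 CPM of the whole marrow section.

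Slc8b1 was at 556 CPM (448 to 682) in monocyte, 412 CPM (387 to 437) in neutrophil and 403 CPM (308 to 519) in C1q-gated cells of the marrow, whose intervals overlap, and at 33.9 CPM (25.3 to 44.6) in erythroid cells. Slc16a3 was at 342 CPM (320 to 365) in neutrophil and 330 CPM (285 to 381) in megakaryocyte marker cells, and at 51.2 CPM (40.4 to 64.0) in erythroid cells. Slc1a3 was at 1095 CPM (934 to 1277) in C1q-gated cells of the marrow and at most 131 CPM in any other class. Its 10 counts in fetal stromal marker cells gave 143 CPM (68.4 to 262), and the 64 C1q-gated cells had 0 counts, an interval of 0 to 294 CPM. Slc6a8 had 12 counts in fetal stromal marker cells (171 CPM, 88.4 to 299) and 0 in erythroid cells, an interval of 0 to 23.4 CPM.

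**Figure D4:**
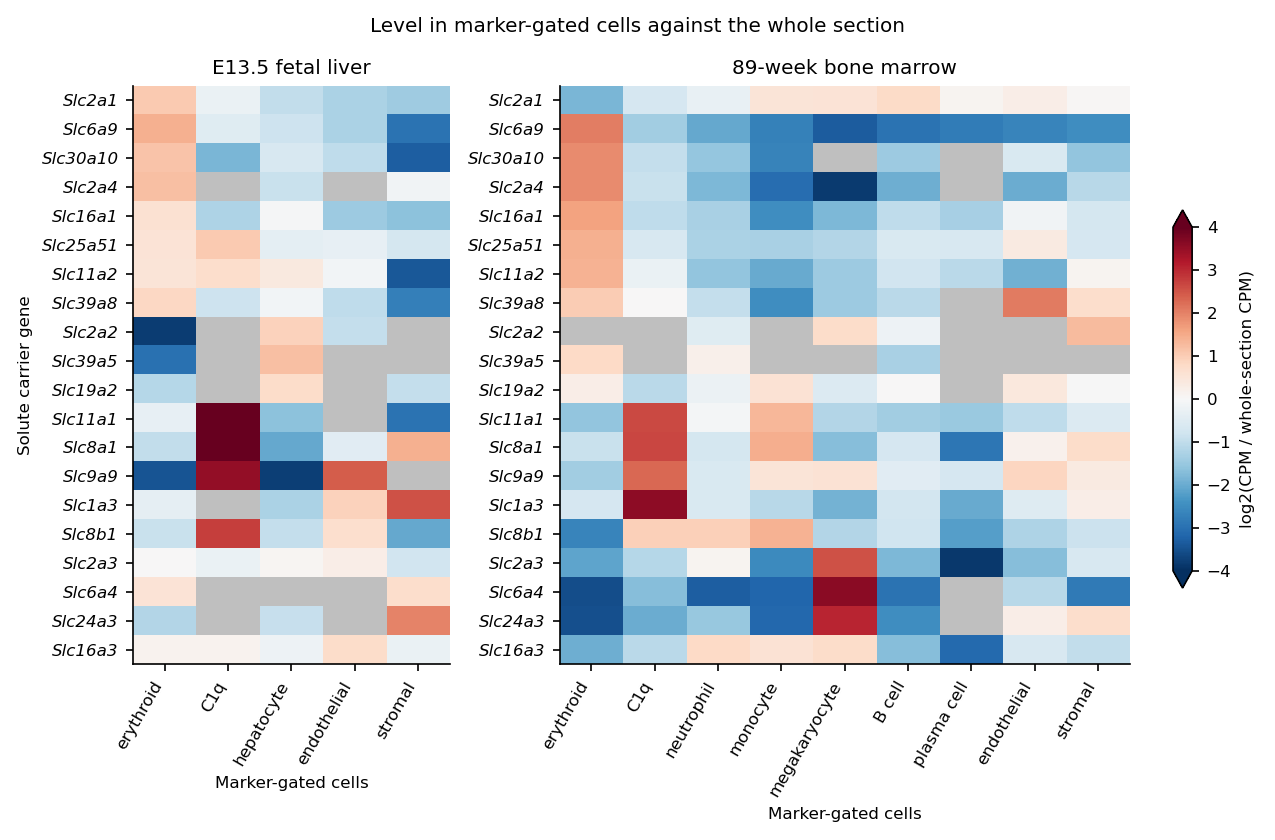
Level of 20 solute carrier genes in cells that met exactly 1 marker list, as log2 of the CPM in those cells over the CPM of the whole section, in E13.5 fetal liver (left) and 89-week bone marrow (right); red is above and blue below the section, grey marks a count of 0, and colors stop at 4 in either direction. Rows with few counts, such as Slc6a4 and Slc1a3 in the fetal liver and Slc2a2 and Slc39a5 in the marrow, are imprecise. Slc6a9 is red in erythroid cells of both sections and Slc6a4 in megakaryocyte marker cells of the marrow.

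Only Slc17a7, a vesicular glutamate carrier, and Slc22a6, an organic anion carrier, were also on the smaller panel used for the other sections of the study. Both were below the highest genomic control probe in the E13.5 fetal liver and the 89-week marrow, with 4 and 40 counts of Slc17a7 and 1 and 43 of Slc22a6. The highest negative control probe there gave 1 and 18 counts, so Slc17a7 was above that probe in both sections and Slc22a6 in the marrow only. In the E14.5 fetal liver, the P8 bone marrow, the untreated spleen and the spleen after phenylhydrazine (PHZ), Slc17a7 gave 339, 350, 220 and 253 counts, and Slc22a6 gave 248, 119, 134 and 140. The highest negative control probe in these sections gave 105, 40, 77 and 76 counts. Slc17a7 was highest in the P8 marrow, at 54.4 CPM (48.8 to 60.4), against 16.2 to 22.1 CPM in the other 3 sections. Its level in the larger panel is not on the same scale, since probes, panel and software differed.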

How the data were processed

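The authors deposited whole-number transcript counts per gene and segmented cell, without normalization, as the instrument's software made them (Xenium Onboard Analysis 3.1.0.4 per the file headers, whereas the paper's methods name Space Ranger). Cells of the 2 sections were outlined with boundary stains or expanded nuclei. No genome build is given in the sources used here. Reassignment of transcripts to neighboring cells and doublet calling were not attempted. Positions of cells set the quadrants.

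Counts were summed over kept cells and divided by the total of all genes in that group (CPM) with Python 3.11.15 and scipy 1.17.1. Ratios carry exact conditional binomial intervals and levels exact Poisson intervals, at 95% confidence. With 1 section per condition no test was run. The functions were tested on simulated data.

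The rule for named genes took the 10 largest ratios each way for whole sections and the 6 largest for gated cells, plus the listed carriers of erythroid cells, macrophages, hepatocytes, and granulocytes and lymphocytes. Genes outside it, such as Slc20a2, Slc2a4 in C1q-gated cells and genes of the marker classes, were chosen after their values were seen, as were the comparison with genomic control probes and the gate of 10 counts. One gene of the set is counted in the totals but is not reported here by itself. Members and lists were chosen with earlier results of these data known. Alternatives were other count minimums, scalings, gates, marker filters and cells thinned to 50 counts. The marker filters covered hepatocyte, neutrophil, B cell and megakaryocyte markers and kept cells that met both gates. They applied to gated cells only and left the ungated cells as they were.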

Additional observations from a re-analysis of the deposited data

Results flagged for a closer look

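For 2 genes the difference between erythroid-gated and ungated cells ran in opposite directions in the sections. The ungated cells were a different mix in each. Their hepatocyte markers summed to 40588 CPM in the fetal liver and 39.3 CPM in the marrow, and their neutrophil markers to 2599 and 61169 CPM. The ratios therefore have unlike denominators. The difference between sections was not tested, since each was 1 section, and the share of such genes over the whole panel was not computed. The ratio of Slc2a1 was 2.54 in the E13.5 fetal liver and 0.295 in the 89-week bone marrow. It was 1.81 in the fetal liver with a gate of at least 10 counts and 0.505 in the marrow with median-ratio scaling, so that either call is lost there. With the gate of 10, cells with fewer counts of the gate genes join the ungated set, which grows from 2515 to 4595 fetal cells. The part of this in the ratio was not tested. The ratio of Slc11a1 was 2.24 in the fetal liver and 0.458 in the marrow, the fetal value was 1.07 without the cells that also met the C1q gate, and the marrow value was 0.784 with median-ratio scaling.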

How the results depend on the processing

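The count of genes apart was 16 between the whole sections and 31 as counts per cell. Between erythroid-gated and ungated fetal cells it was 7, and 3 with a minimum of 50 expected counts, 4 with a gate of at least 5 counts, 2 with cells thinned to 50 counts and 4 with a gate of at least 10 counts, an alternative chosen after seeing the data. In the marrow it was 25, and 15 with median-ratio scaling and 16 thinned. Between C1q-gated and ungated fetal cells it was 3, and 5 with a minimum of 10, 1 with a minimum of 50 and 1 without other markers, and in the marrow 7, and 4 thinned. Between the erythroid-gated cells of the sections it was 17, and 2 thinned, 6 without other markers and 8 with the gate of 10. Between the C1q-gated cells it was 4, and 7 with a minimum of 10, and 1 with a minimum of 50, 1 without cells that met both gates, 2 without other markers and 1 with the gate of 10. Most of these settings leave fewer genes that enter, and thinned fetal C1q-gated cells left none, so that no value is given there. Higher gates and thinning also move gated cells into the ungated set. Ungated fetal cells numbered 2515 in the main setting, 4595 with the gate of 10 and 4109 thinned. Of the other 44 counts, each was within 1.5 times its main value. Thinned cells gave log2 values of opposite sign for Slc6a8 between fetal erythroid-gated and ungated cells (0.42) and for Slc1a3 between erythroid-gated cells (0.11), but these had 0 counts against 13 and 29 and were set to the floor of 3 counts, so they give no direction. Other log2 ratios that reversed were those of Slc6a9 in C1q-gated marrow cells without cells that met both gates (-0.12) or with the gate of 10 (-0.29) and of Slc2a3 between C1q-gated cells without other markers (0.51). The cause was not tested. Ratios that kept their direction but were no longer apart were, as counts per cell, those of Slc1a3, Slc8b1, Slc2a3 and Slc9a9 between the whole sections (0.759 to 0.898). In fetal erythroid-gated cells they were those of Slc11a1 (1.07 to 1.78 over 4 settings), Slc47a1 (0.521 to 0.724 over 3), Slc30a10 thinned (1.93) and Slc2a1 with the gate of 10 (1.81). In the marrow they were those of Slc2a1 (0.505), Slc11a1 (0.784) and Slc9a9 (0.704) with median-ratio scaling and of Slc39a8 thinned (1.33), and for C1q-gated marrow cells that of Slc6a9 with a gate of 5 (1.44) or thinned (1.58). Between erythroid-gated cells they were those of Slc16a1 thinned (0.639) and Slc2a4 without other markers (0.742). No paired analysis was possible because each group was 1 section. Depth limits the fetal C1q-gated cells most, since 301 cells gave 107240 counts.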
